A study of Mus musculus with 4 samples.

Results

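Id2, Id3, Tcf3, Tcf12 and Tcf4 are the Id and E protein genes described here, taken by symbol, 5 of the 32285 genes listed for each library. They were measured in thymic invariant natural killer T (iNKT) cells, T lymphocytes whose nearly invariant receptor binds glycolipids on CD1d. The cells were sorted from thymus as CD3-positive cells that bound CD1d carrying PBS57 and were read with a 10x Genomics 5' single-cell kit. BALB/c mice gave 2 libraries and B6 mice gave 2, with no treatment or other allele named, and the sources used here give neither age, sex nor the number of animals behind a library. Whether each library is a different animal or pool is not stated, so the p-values below measure the spread between these libraries, which may be technical.

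E proteins, encoded by Tcf3, Tcf12 (whose product is also called HEB) and Tcf4, are basic helix-loop-helix transcription factors that pair with each other and bind E-box DNA. Id proteins have the helix-loop-helix but no DNA-binding basic region, so an E protein paired with Id2 or Id3 does not bind DNA. In the thymus E proteins are known to be active in CD4 and CD8 double-positive thymocytes, where they support rearranged receptor expression, and receptor signalling is known to induce Id3 through Egr factors. Id2 is known for its part in effector lymphocytes, including the iNKT1 subset.

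On GRCm38, GENCODE vM21 places Id2 (ENSMUSG00000020644) at chr12:25093799-25097140 on the minus strand, Id3 (ENSMUSG00000007872) at chr4:136143497-136145755 on the plus strand, Tcf3 (ENSMUSG00000020167) at chr10:80409514-80433647 on the minus strand and Tcf12 (ENSMUSG00000032228) at chr9:71842688-72111871 on the minus strand. The genes differ greatly in intron length: Id2 has 0.904 kb of intron and Id3 0.468 kb, against 20.1 kb in Tcf3, 254 kb in Tcf12 and 318 kb in Tcf4. The E-box, CANNTG in its general form, is the sequence through which E proteins act, so the RefSeq start regions (GRCm38.p6) of the genes were searched for it over the 250 bases before the start, on both strands. Id2, Tcf3 and the first-listed start of Tcf12 each held 1 E-box and Id3 held none; 66.2% of 32851 RefSeq start regions of the same length held at least 1. The stretches outside every annotated exon are shown 5′ to 3′ on the gene's strand with the E-box in capitals; the Id3 window lies wholly in an annotated exon and is not shown.
Id2, chr12:25096254-25096342, minus strand: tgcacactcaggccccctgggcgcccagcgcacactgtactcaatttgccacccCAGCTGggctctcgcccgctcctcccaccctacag
Tcf3, chr10:80433648-80433885, minus strand: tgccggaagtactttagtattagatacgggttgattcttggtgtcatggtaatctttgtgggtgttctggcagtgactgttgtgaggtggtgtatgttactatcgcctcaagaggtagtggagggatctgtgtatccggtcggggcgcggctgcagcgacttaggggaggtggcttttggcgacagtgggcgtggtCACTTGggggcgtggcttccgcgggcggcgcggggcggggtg
Tcf12, chr9:72111872-72112069, minus strand: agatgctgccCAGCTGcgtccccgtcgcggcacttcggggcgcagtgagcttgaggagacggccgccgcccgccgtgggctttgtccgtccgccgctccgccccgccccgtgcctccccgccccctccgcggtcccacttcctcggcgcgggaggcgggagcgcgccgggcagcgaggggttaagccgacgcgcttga
The first base of the E-box stands 196 bases before the RefSeq start of Id2, 54 bases before that of Tcf3 and 240 bases before that of Tcf12. The stretches of Tcf3 and Tcf12 lie just before the GENCODE span of the gene, whereas that of Id2 lies inside the span and outside its exons, so it is intronic in the longer gene model; Tcf4 was not searched. A match is a description of the letters in this window and shows no binding.

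After filtering, 1864 and 1913 cells of BALB/c 1 and 2 and 2328 and 8788 cells of B6 1 and 2 were kept, with a median of 6932.5 to 11014 UMIs (distinct tagged molecules) per cell. The deposited totals ran from 20406245 to 82904358 UMIs per library. B6 2 stood apart from the others: it held the most cells, its file header named a later version of Cell Ranger, the 10x counting software (7.1.0, against 6.0.0 in the other 3), and the chi-square per degree of freedom over genes was 99.5 between the B6 libraries against 8.40 between the BALB/c libraries. Between 4 and 31 cell barcodes were shared by any pair of libraries. Clusters were named from marker genes that did not include the 5 genes, which were also left out of the clustering, and the names are used here as "-like" classes; genes that vary with the 5 did enter the clustering, so tests between classes describe these clusters. Levels are given as CPM, the UMIs of a gene scaled to the same total for each library and class. The summed level of the 16 iNKT1 markers (Tbx21, Il2rb, Xcl1 and others) was 9843 to 11440 CPM in BALB/c and 7861 to 8107 in B6 iNKT1-like cells, and 1154 or lower in the iNKT2, iNKT17, iNKT0 and double-positive-like classes. Other lists separated less. The 11 iNKT2 markers summed to 2305 to 2983 CPM in iNKT2-like, 1368 to 2144.5 in iNKT17-like and 1501.5 to 2094 in iNKT0-like cells. The 9 iNKT0 markers summed to 4378 to 6596 CPM in iNKT0-like and 3639 to 4515 in double-positive-like cells. The sort also held double-positive-like thymocytes (99 and 195 cells in BALB/c, 139 and 251 in B6) and a small B-cell-like cluster. In that cluster all 8 B-cell markers were raised (mean log2 fold 8.61). So were all 6 plasmacytoid dendritic markers (4.50) and 5 of 6 myeloid markers (2.76), and it may be mixed.

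Id2 and Id3 differed in which iNKT class they were highest in. In the clusters drawn here Id2 stood at 337 CPM or more in all 4 iNKT classes and was highest in iNKT1-like cells, while Id3 was high in iNKT0-like (recently selected) and iNKT2-like cells and at 25.2 to 30.1 CPM in iNKT1-like cells. The iNKT0-like cluster had 8 of the 9 iNKT0 markers raised (mean log2 fold 1.76), but also 6 of the 11 iNKT2 markers (0.57). The Id2 level of iNKT0-like cells depended on the clustering: its log2 fold over iNKT2-like cells was -0.75 here and -3.76 at a finer resolution (edgeR adjusted p = 0.0165 and 9.85e-11). In iNKT1-like cells Id2 stood at 886 and 895 CPM in BALB/c, against 1435 and 1532 in B6. In iNKT2-like cells it stood at 549.7 and 478 in BALB/c, against 644 and 740 in B6. Every library had more Id2 in its iNKT1-like than in its iNKT2-like cells, by 1.61 to 2.23 times. Across the 4 libraries and both classes in one fit with library as a block, Id2 was higher in iNKT1-like cells by 1.01 ± 0.22 on the log2 scale (SE; edgeR adjusted p = 0.000735).

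Id3 ran the other way and by far more. In iNKT1-like cells it measured 25.2 and 29.8 CPM in BALB/c, against 30.1 and 28.7 in B6. In iNKT2-like cells it measured 772 and 743 CPM in BALB/c, against 478 and 428 in B6. The iNKT1-like values did not overlap those of the other iNKT classes or of double-positive-like cells. Id3 was lower in iNKT1-like than in iNKT2-like cells by a log2 fold of -4.20 ± 0.29 (edgeR adjusted p = 1.42e-09), with the same direction in 4 of 4 libraries. In this contrast 3 of the 5 genes were called at an adjusted p under 0.05, against 53.8% of the 10315 genes tested, so the number called says little about these genes and their sizes and directions are the result. The level of Id3 in iNKT1-like cells was alike in both strains while the level over all kept cells was 638 and 548 CPM in BALB/c, against 206 and 193 in B6.

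iNKT17-like cells, the subset known for interleukin 17, lay between these classes. Their Id2 was 678 and 561 CPM in BALB/c, against 986 and 939 in B6, and their Id3 was 380.4 and 366 in BALB/c, against 138 and 95.5 in B6. Against iNKT2-like cells, 1 of the 5 genes was called (33.5% of all genes tested were): Id3, lower by a log2 fold of -1.42 ± 0.26 (edgeR adjusted p = 0.000304). Id2 was higher in iNKT17-like than in iNKT2-like cells in 4 of 4 libraries, by 1.17 to 1.53 times, but did not pass the test (log2 fold 0.32 ± 0.22, edgeR adjusted p = 0.298). Against iNKT1-like cells 3 of the 5 genes were called (36.7% of all genes tested were): Id3 was higher by a log2 fold of 2.79 ± 0.29 (edgeR adjusted p = 3.25e-07), Id2 lower by -0.70 ± 0.22 (edgeR adjusted p = 0.018) and Tcf12 lower by -0.49 ± 0.16 (edgeR adjusted p = 0.0222). The Id2 call was lost without BALB/c 2 (log2 fold -0.67, edgeR adjusted p = 0.0525), with cells assigned by marker score (-0.59, edgeR adjusted p = 0.12) and by DESeq2 (-0.67, adjusted p = 0.0601), and the Tcf12 call without B6 1 (-0.46, 0.0792) or without B6 2 (-0.49, 0.0523).

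**Figure D1:**
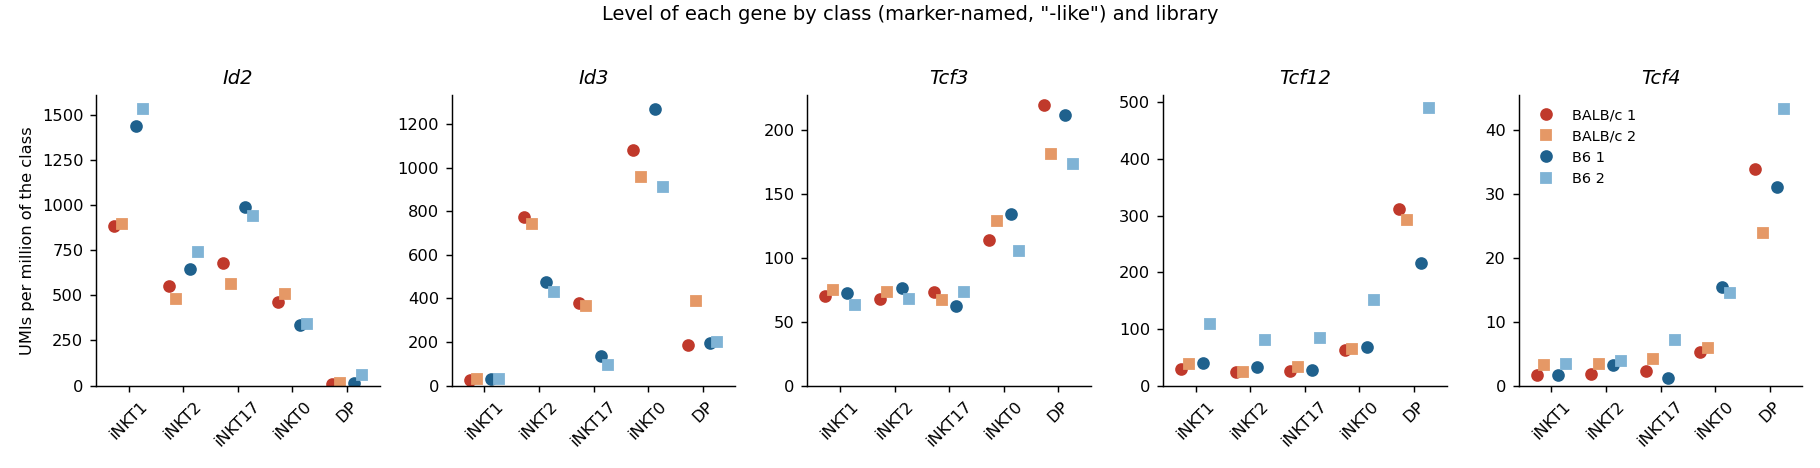
Level of each gene, in CPM of the class, in each library and class (1 point per library, linear axes that start at 0 and differ between genes; DP, double-positive-like). Id2 was highest in iNKT1-like cells, where Id3 measured 25.2 to 30.1, and the 3 E protein genes were highest in DP cells; B6 2 had the highest Tcf12 of the 4 libraries in every class shown.

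The order of the classes by their mean over the 4 libraries was iNKT1, iNKT17, iNKT2, iNKT0 and double-positive for Id2. The ranges of neighbours overlapped down to iNKT0-like cells, and only the step to double-positive-like cells left a gap, from 337 to 505 CPM in iNKT0-like cells against 9.05 to 57.4 in double-positive-like cells. That gap holds for these clusters: 17.4 to 34.4% of iNKT0-like cells had an Id2 UMI, and at a finer resolution the log2 fold of Id2 over iNKT2-like cells was -3.76 (edgeR adjusted p = 9.85e-11), where that of double-positive-like cells was -4.90. For Id3 the order was iNKT0, iNKT2, iNKT17, double-positive and iNKT1, in which iNKT17-like and double-positive-like cells overlapped and the other neighbours did not. All 3 E protein genes were highest in double-positive-like cells and next in iNKT0-like cells, with no overlap between these classes. Below iNKT0-like cells the E protein levels of the iNKT1, iNKT2 and iNKT17-like classes overlapped for all 3 genes.

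Double-positive-like cells, the thymocyte stage from which iNKT cells are selected, had more of each E protein gene and less of both Id genes than iNKT2-like cells. Their Tcf12 was 312 and 292 CPM in BALB/c, against 216 and 489 in B6, their Tcf3 219 and 182 in BALB/c, against 212 and 174 in B6, and their Tcf4 33.9 and 23.8 in BALB/c, against 31.1 and 43.4 in B6. Their Id2 was 9.05 and 16.5 CPM in BALB/c, against 15.5 and 57.4 in B6, from 4 to 74 UMIs, with B6 2 the highest. Their Id3 was 188 and 388 CPM in BALB/c, against 198 and 199 in B6. All 5 genes were called against iNKT2-like cells (61.1% of all genes tested were). Tcf12 was higher by a log2 fold of 2.75 ± 0.15 (edgeR adjusted p = 1.34e-11), Tcf4 by 3.03 ± 0.28 (edgeR adjusted p = 2.46e-08) and Tcf3 by 1.07 ± 0.08 (edgeR adjusted p = 2.14e-09). Id2 was lower by -4.81 ± 0.32 (edgeR adjusted p = 2.47e-10) and Id3 by -1.65 ± 0.27 (edgeR adjusted p = 3.73e-05). The Id2 fold passed under all 10 alternatives, at -5.64 (without B6 2) to -2.98 (cells assigned by marker score). Different clusters held most double-positive-like cells of each strain, and their median depth was 2588 to 3076 UMIs per cell, under that of every iNKT class.

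iNKT0-like cells shared features of both sides: Id3 at its highest together with more of each E protein gene. Id3 was 1083 and 956 CPM in BALB/c, against 1271 and 910.5 in B6. Against iNKT2-like cells 4 of the 5 genes were called (32.6% of all genes tested were). Tcf12 was higher by a log2 fold of 0.89 ± 0.16 (edgeR adjusted p = 0.000279), Tcf3 by 0.48 ± 0.08 (edgeR adjusted p = 0.000207) and Tcf4 by 1.42 ± 0.33 (edgeR adjusted p = 0.0026), and each was higher in 4 of 4 libraries. Id3 was higher in 4 of 4 libraries, by 1.29 to 2.66 times, and did not pass (log2 fold 0.60 ± 0.25, edgeR adjusted p = 0.0757). Id2 was lower by -0.75 ± 0.23 (edgeR adjusted p = 0.0165), in 3 of 4 libraries. The Tcf4 value rests on 5 to 23 UMIs per library and its call was lost without B6 2 (1.29, edgeR adjusted p = 0.0629). These values depended on where the iNKT0-like cluster ended. When clusters were drawn at a finer resolution the folds were -3.76 for Id2 (edgeR adjusted p = 9.85e-11), 2.12 for Tcf12 (5.27e-09), 3.10 for Tcf4 (2.44e-07), 0.95 for Tcf3 (1.14e-07) and 0.13 for Id3 (0.593). The Id2 fold was -0.39 (edgeR adjusted p = 0.366) when single cells were assigned by marker score, and its call was lost without B6 1 (-0.64, edgeR adjusted p = 0.0762). Id3 passed with no filter on low counts (0.56, edgeR adjusted p = 0.00671) and without BALB/c 1 (0.73, 0.0474). Only 17.4 to 34.4% of iNKT0-like cells had an Id2 UMI, against 70.4 to 80.0% with an Id3 UMI.

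Among the mature classes the E protein genes differed little. Tcf3 stood between 62.2 and 76.1 CPM in every library of the iNKT1, iNKT2 and iNKT17-like classes, and its log2 fold between iNKT1-like and iNKT2-like cells was 0.02 ± 0.08 (edgeR adjusted p = 0.907). Tcf12 was higher in iNKT1-like than in iNKT2-like cells in 4 of 4 libraries, by 1.23 to 1.51 times (log2 fold 0.51 ± 0.14, edgeR adjusted p = 0.00473); with cells assigned by marker score the fold was 0.40 (edgeR adjusted p = 0.0688). Tcf4 (ENSMUSG00000053477, chr18:69343356-69689079, plus strand) was close to its limit of detection, with 3 to 128 UMIs per library over the whole iNKT1-like class, or 1.63 to 3.43 CPM. The B-cell-like cluster had 217 and 303 CPM of Tcf4 in BALB/c and 200 in B6 1. Plasmacytoid dendritic markers were raised in it too, and which of its cells held Tcf4 was not tested.

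The strains differed in Id2 and in Id3 in opposite directions. Over all kept cells Id2 was 579 and 543 CPM in BALB/c, against 1068 and 1139 in B6, and Id3 was 638 and 548 in BALB/c, against 206 and 193 in B6, with no overlap between strains for either gene. These were the genes called among the 5 (7.39% of 12882 genes tested were called). Id2 was lower in BALB/c by a log2 fold of -0.94 ± 0.08 (edgeR adjusted p = 0.0165) and Id3 was higher by 1.61 ± 0.11 (edgeR adjusted p = 0.0141). Both calls were lost when either BALB/c library was left out: without BALB/c 1 the folds were -0.97 and 1.51 (edgeR adjusted p = 0.274 and 0.228), and without BALB/c 2 they were -0.90 and 1.71 (0.229 and 0.133). With the replicate number as a block the folds were -0.94 and 1.61 (edgeR adjusted p = 0.0668 and 0.0536). The makeup in classes moved with these sums: the iNKT1-like class held 15.2 and 32.1% of the BALB/c cells kept, against 59.8 and 58.6% of those of B6, and iNKT2-like cells 48.7 and 38.6% in BALB/c, against 11.8 and 17.4% in B6. Levels within a class were therefore compared next.

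Within iNKT1-like cells only Id2 was called among the 5 genes (4.41% of 10650 genes tested were). It was lower in BALB/c by a log2 fold of -0.70 ± 0.12 (edgeR adjusted p = 0.0258), and Id3 did not differ beyond the spread (-0.04 ± 0.16, edgeR adjusted p = 0.943). Without BALB/c 1 the Id2 fold was -0.67 (edgeR adjusted p = 0.557) and without BALB/c 2 it was -0.73 (edgeR adjusted p = 0.496). Different clusters held this class in each strain. The cluster that all libraries shared (with Klrd1, Xcl1 and Nkg7 among its leading genes) had 1206 and 1112 CPM of Id2 in BALB/c, against 1498 and 1495 in B6. A cluster of 139 and 299 BALB/c cells, and 1 cell of B6, with Ly6c1, Ccl5 and Gzma among its leading genes, had 568 and 658. A cluster of B6 cells led by Gzma and Klri2 had 1167 in B6 1 and 1275 in B6 2, and a further 3 clusters, mostly of B6 2 cells, had 1684, 1451 and 1650 in B6 2.

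Within iNKT2-like cells the called gene was Id3 (6.49% of 11930 genes tested were called), higher in BALB/c by a log2 fold of 0.85 ± 0.12 (edgeR adjusted p = 0.0259). The call was lost without BALB/c 1 (0.84, edgeR adjusted p = 0.345), without BALB/c 2 (0.87, edgeR adjusted p = 0.277) and at a finer cluster resolution (0.73, edgeR adjusted p = 0.0507). Id2 was lower in both BALB/c libraries and did not pass (-0.32 ± 0.10, edgeR adjusted p = 0.146). Without cycling cells it was -0.46 and passed (edgeR adjusted p = 0.0425). Its fold was -0.35 without B6 1, -0.27 without B6 2, -0.40 without BALB/c 1 and -0.23 without BALB/c 2. Of these fits, only those without a B6 library passed, where the spread comes from the BALB/c libraries alone. The summed level of the 16 iNKT1 markers in this class, all 16 detected in each library, was 563 and 573 CPM in BALB/c, against 1066 and 1154 in B6, and their part in the result was not tested. A cluster with Sox13, Il4 and Ccr4 among its leading genes held 833 of the 908 cells of BALB/c 1 and 666 of the 739 of BALB/c 2, against 70 of 274 in B6 1 and 43 of 1527 in B6 2. Another, with Il13, Il17rb and Plac8 among them, held 137 of the 274 cells of B6 1 and 1288 of the 1527 of B6 2. Inside the first of these, Id3 was 777 and 743 CPM in BALB/c, against 529.6 and 603 in B6, and Id2 was 546 and 487 in BALB/c, against 578 and 561 in B6. Cycling cells made up 8.37 and 11.8% of iNKT2-like cells in BALB/c, against 34.3 and 19.3% in B6.

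Within iNKT17-like cells, which formed a single cluster in all libraries, Id3 again was the called gene (of 4 members tested, Tcf4 being under the filter; 4.59% of 9331 genes tested were called). It was higher in BALB/c by a log2 fold of 1.70 ± 0.21 (edgeR adjusted p = 0.00236). This call held under all 13 alternatives, leaving out any library included, at folds of 1.36 to 2.04. Id2 was lower in both BALB/c libraries and fell short of the threshold (-0.64 ± 0.16, edgeR adjusted p = 0.0575). It passed under 8 of 13 alternatives, among them both fits without a B6 library and neither fit without a BALB/c library. The fold was -0.52 without B6 1 and -0.74 without B6 2. A fit without a library leaves a single library in that strain, so its p-value measures spread in the other strain only.

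In iNKT0-like and double-positive-like cells none of the 5 genes was called between strains in the main edgeR fit. That fit used the clusters drawn here, all 4 libraries and a filter on low counts, and called 1.05% of 8322 and 1.46% of 8226 genes tested. At an unadjusted p under 0.05, Id2, Tcf12 and Tcf4 passed in iNKT0-like cells and Id2 in double-positive-like cells, and DESeq2 called none of the 5 in either class. Id2 in iNKT0-like cells stood at 462 and 505 CPM in BALB/c, against 337 and 339 in B6, the only class in which the BALB/c libraries were the higher ones. Its log2 fold was 0.60 ± 0.14 (edgeR adjusted p = 0.101), and it was -0.75 at a finer cluster resolution, -0.19 by marker score and -0.15 with doublets kept. It passed with no filter on low counts. The fold was 0.63 without B6 1 and 0.55 without B6 2, and both fits passed on the spread between the BALB/c libraries only. In double-positive-like cells the Id2 fold was -1.42 ± 0.56 (edgeR adjusted p = 0.34) and ran from -2.84 to -0.14 over 12 alternatives. It passed with no filter (-1.41, edgeR adjusted p = 0.019) and by marker score (-2.84, 0.00341). Without B6 1 it was -1.91 and without B6 2 -0.14, each with a single B6 library left. The Id3 fold there was 0.62 ± 0.28 (edgeR adjusted p = 0.418). It passed with no filter (0.63, edgeR adjusted p = 0.0467). Without B6 1 it was 0.70 and without BALB/c 2 -0.06, each with a single library left in that strain.

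**Figure D2:**
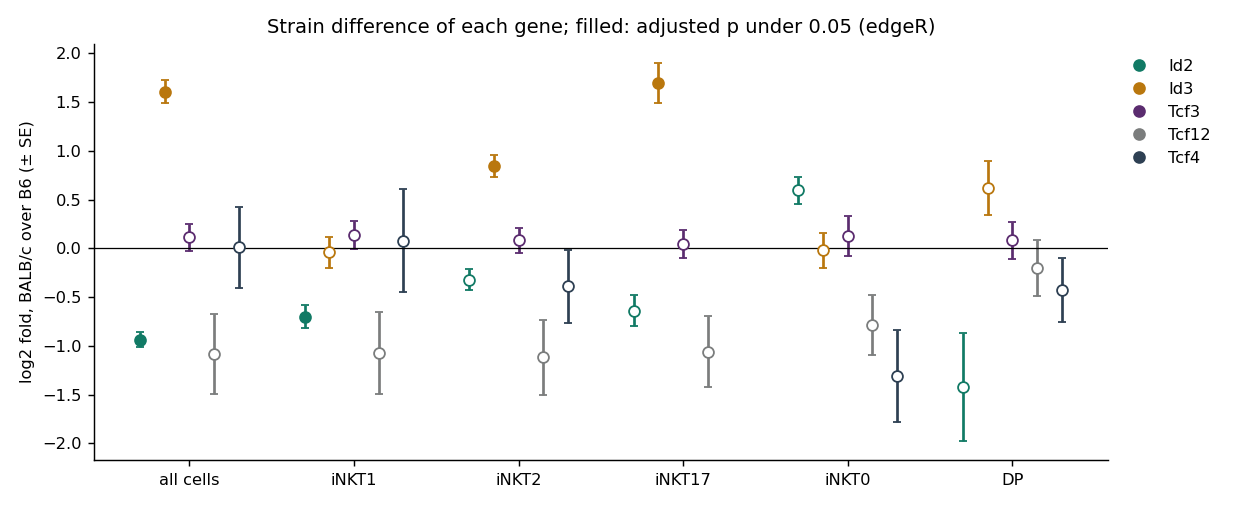
Log2 fold of each gene, BALB/c over B6, over all kept cells and within each class (bars, SE; filled points, edgeR adjusted p under 0.05). Id3 was higher in BALB/c in the iNKT17-like class, the iNKT2-like class and the sum of all cells, Id2 was lower over all cells and in iNKT1-like cells, and Tcf3 lay within 0.14 of 0 throughout.

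As the classes were drawn here, the strain effect itself differed between iNKT1-like and iNKT2-like cells for both Id genes. The cluster makeup of both classes differed between strains, and its part in the terms was not tested. In the iNKT1-like cluster that all libraries shared, Id2 was 1206 and 1112 CPM in BALB/c, against 1498 and 1495 in B6. Id3 there was 40.7 and 41.3, against 33.3 and 35.6. In the iNKT2-like cluster led by Sox13, Id2 was 546 and 487, against 578 and 561. Id3 there was 777 and 743, against 529.6 and 603. In the fit with an interaction term 2 of the 5 genes were called (9.22% of 12353 genes tested were). The log2 fold of Id3 in iNKT1-like cells minus that in iNKT2-like cells was -0.90 ± 0.13 (edgeR adjusted p = 8.55e-05), and that of Id2 was -0.40 ± 0.09 (edgeR adjusted p = 0.0076). The Id3 term stayed past the threshold under all 11 alternatives, at -1.26 to -0.46, the smallest with doublets kept. The Id2 term was -0.29 without BALB/c 1 (edgeR adjusted p = 0.269) and -0.23 without cycling cells (edgeR adjusted p = 0.0152).

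None of the E protein genes was called between strains in any class by edgeR with all 4 libraries, low counts filtered and no block. Tcf3 had log2 folds of 0.05 to 0.14 in all kept cells and the 5 classes, each with an SE of 0.13 to 0.20. Without B6 1 its fold was 0.31 in iNKT1-like and 0.23 in iNKT2-like cells. Tcf12 was lower in BALB/c over all kept cells, with 41.0 and 44.0 CPM in BALB/c, against 55.0 and 131 in B6 (log2 fold -1.09 ± 0.41, edgeR adjusted p = 0.181). B6 2 stood apart here too. It had 2.19 to 3.02 times the Tcf12 of B6 1 in every class. Without B6 2 the strain fold was -0.36 over all kept cells, -0.23 in iNKT1-like, -0.38 in iNKT2-like and -0.05 in iNKT17-like cells. It was -0.10 in iNKT0-like and 0.47 in double-positive-like cells. Without B6 1 the fold was -1.55 over all kept cells, -1.54 in iNKT1-like, -1.54 in iNKT2-like and -1.49 in iNKT17-like cells. It was -1.14 in iNKT0-like and -0.61 in double-positive-like cells. Either fit leaves a single B6 library, so its p-values measure the spread between the BALB/c libraries only and are not given. Without the filter on low counts Tcf12 passed in iNKT1 (-1.09, edgeR adjusted p = 5.78e-10), iNKT2 (-1.11, 0.000502), iNKT17 (-1.03, 7.68e-05) and iNKT0-like cells (-0.79, 0.0169). By DESeq2 it passed over all kept cells (-1.07, adjusted p = 0.03) and in iNKT2-like cells (-1.09, 0.0339). With the replicate number as a block it passed in iNKT1-like (-1.05, edgeR adjusted p = 0.0135) and iNKT17-like cells (-0.86, 0.032), and with crossed pairs it did so at -0.87 (0.0101) and -0.98 (0.0283).

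Tcf12 is also a gene with long introns, and B6 2 over B6 1 moved with intron length across genes. Over all kept cells, the median log2 ratio of B6 2 to B6 1 was -0.09 for 469 genes with under 1 kb of intron, -0.04 for 1735 genes with 1 to 10 kb, 0.09 for 3375 genes with 10 to 100 kb and 0.58 for 594 genes with over 100 kb. The same medians for BALB/c 2 over BALB/c 1 were -0.01, -0.02, -0.03 and -0.04. Tcf12 lay at 1.24 for B6 2 over B6 1, above the quartile of 0.93 of its length group, while Id2 lay at 0.09, Id3 at -0.09 and Tcf3 at -0.25. Tcf4 lay at -0.25, on 138 UMIs in B6 1 and 425 in B6 2. The B-cell-like cluster gave 45 of these UMIs in B6 1 and 0 in B6 2. Within classes Tcf4 lay at 0.75 in iNKT1-like, 0.20 in iNKT2-like, 1.91 in iNKT17-like, -0.08 in iNKT0-like and 0.47 in double-positive-like cells. The iNKT17-like value rests on 1 UMI in B6 1. The sources used here do not say whether reads within introns were counted in any library, and the part of intron reads in the Tcf12 level was not tested.

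**Figure D3:**
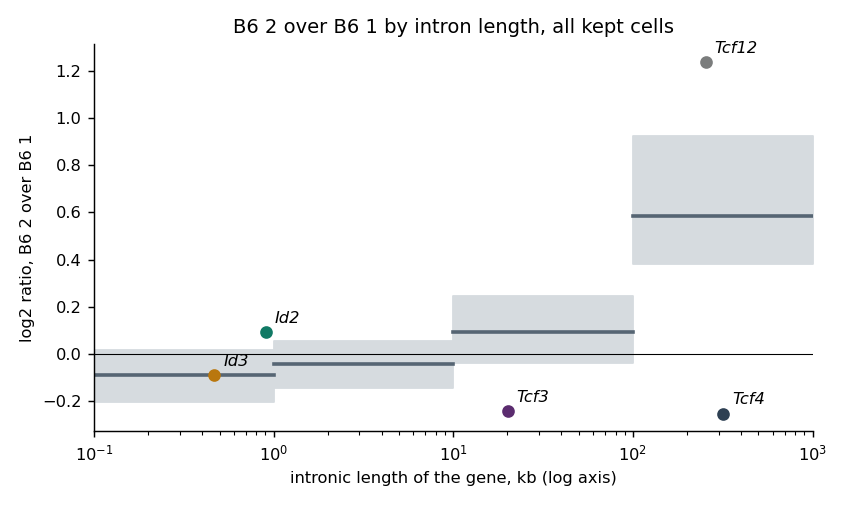
Log2 ratio of B6 2 over B6 1, over all kept cells, against the intronic length of a gene (log axis; lines, medians of genes in 4 length groups; bands, quartiles; points, the 5 genes). The median was -0.09 in the shortest group and 0.58 in the longest, and Tcf12 stood at 1.24.

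The share of Id2 among the Id2 and Id3 UMIs of a class put both genes on a single scale. It is a share of 5' tags, compared between cells, and not a ratio of proteins, since capture can differ between genes. It was 97.2 and 96.8% in BALB/c, against 97.9 and 98.2% in B6 iNKT1-like cells. In iNKT17-like cells it was 64.1 and 60.6% in BALB/c, against 87.7 and 90.8% in B6, in iNKT2-like cells 41.6 and 39.2% in BALB/c, against 57.4 and 63.3% in B6, and in iNKT0-like cells 29.9 and 34.5% in BALB/c, against 21.0 and 27.1% in B6. Exact 95% binomial intervals, which cover counting error only, were within 3 percentage points of these values in every iNKT class. The strains did not overlap in any iNKT class: B6 was higher in iNKT1, iNKT2 and iNKT17-like cells and BALB/c in iNKT0-like cells. The iNKT0-like direction depended on how the class was drawn. It reversed at a finer cluster resolution, by marker score and with doublets kept. Double-positive-like cells showed no overlap of the strains either, with B6 higher. Over all kept cells the share was 48.7 ± 1.5% (SD, n = 2) in BALB/c, against 84.7 ± 1.2% (SD, n = 2) in B6, a difference of -36.0 percentage points. The exact permutation test between 2 and 2 libraries cannot go below p = 0.333, which every non-overlapping difference here reached, and 0.458 after adjustment over 22 tests.

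Between classes the Id2 share was higher in iNKT1-like than in iNKT2-like cells by 47.2 ± 11.2 percentage points (SD over 4 libraries) and higher in iNKT17-like than in iNKT2-like cells by 25.4 ± 4.2, in 4 of 4 libraries each. The exact sign-flip test over 4 libraries gave 0.125 for both, its smallest p (0.393 adjusted over the 22 tests). In double-positive-like cells the share was 4.6 and 4.08% in BALB/c, against 7.28 and 22.4% in B6, on as few as 87 UMIs.

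The share of both Id genes in the UMIs of all 5 genes was steadier. It was 82.2 to 93.4% in the 4 iNKT classes of all libraries and 25.8, 44.9, 31.7 and 26.7% in the double-positive-like cells of the libraries BALB/c 1 and 2 and B6 1 and 2, in this order. Over all kept cells it was 90.03 ± 1.35% in BALB/c, against 88.28 ± 2.30% in B6, a difference of 1.74 percentage points, and the strains overlapped. Without Tcf12, whose level stood apart in B6 2, the difference was -1.02.

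**Figure D4:**
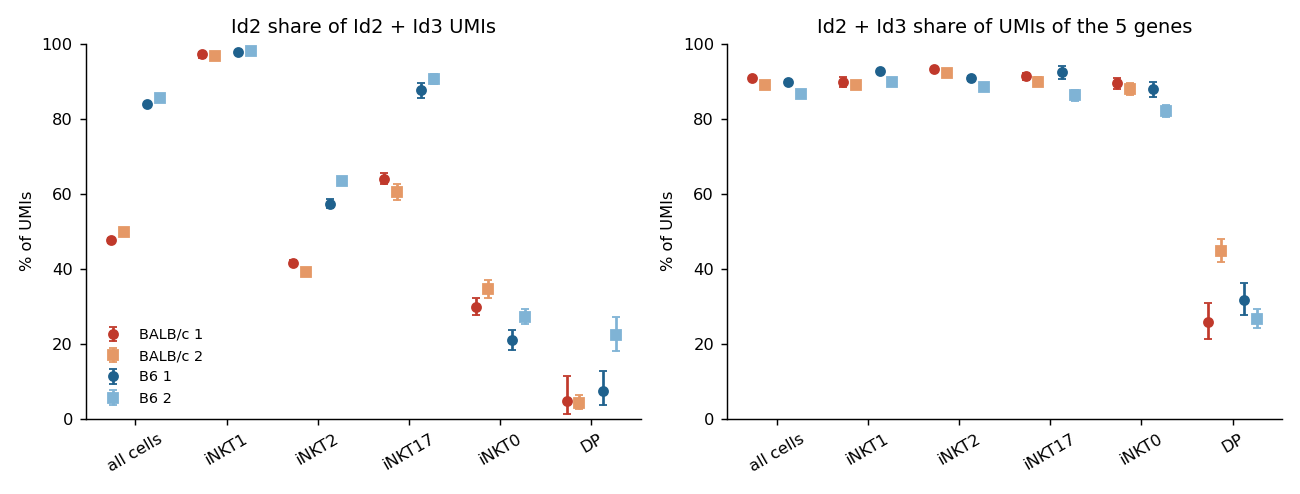
Share of Id2 among Id2 and Id3 UMIs (left) and of Id2 and Id3 among the UMIs of all 5 genes (right), in % for each library and class (points; bars, exact 95% binomial intervals). The left share ran from 96.8 to 98.2% in iNKT1-like cells down to 4.08 to 22.4% in DP cells; the right share was 82.2% or more in every iNKT class and 44.9% or less in DP cells.

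Single cells were compared at a common depth, each thinned to 3000 UMIs, with shallower cells left out (per library 15 to 124 iNKT1-like, 2 to 4 iNKT2-like, 19 to 38 iNKT0-like and 67 to 138 double-positive-like cells). Many iNKT2-like cells carried both Id genes: a UMI of each was found in 48.8 and 42.6% of them in BALB/c, against 39.7 and 39.5% in B6. Those with Id3 only were 23.9 and 24.2% in BALB/c, against 14.3 and 11.6% in B6, and those with Id2 only were 18.5 and 21.6% in BALB/c, against 37.5 and 40.8% in B6. Without thinning, both genes were found in 83.0 and 81.2% of BALB/c and 73.7 and 72.0% of B6 iNKT2-like cells. In iNKT1-like cells the thinned share with both was 5.99 and 4.01% in BALB/c, against 5.89 and 6.64% in B6, and the share with Id2 only was 71.9 and 80.3% in BALB/c, against 90.9 and 90.4% in B6.

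A UMI in a cell can come from free RNA. Double-positive-like cells, which are known to have little Id2, had an Id2 UMI in 3.12 and 2.94% of thinned cells in BALB/c, against 3.17 and 11.5% in B6, at 32 to 113 cells per library; unthinned, at a median of 2588 to 3076 UMIs, the shares were 4.04 and 4.62% in BALB/c, against 7.19 and 15.9% in B6. Id2 shares of iNKT0-like cells (15.6 to 30.6%) lay above these. Id3 UMIs in 5.01 to 6.80% of thinned iNKT1-like cells were the lowest Id3 shares among the iNKT and double-positive-like classes. Whether these cells or free RNA were their source was not tested.

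**Figure D5:**
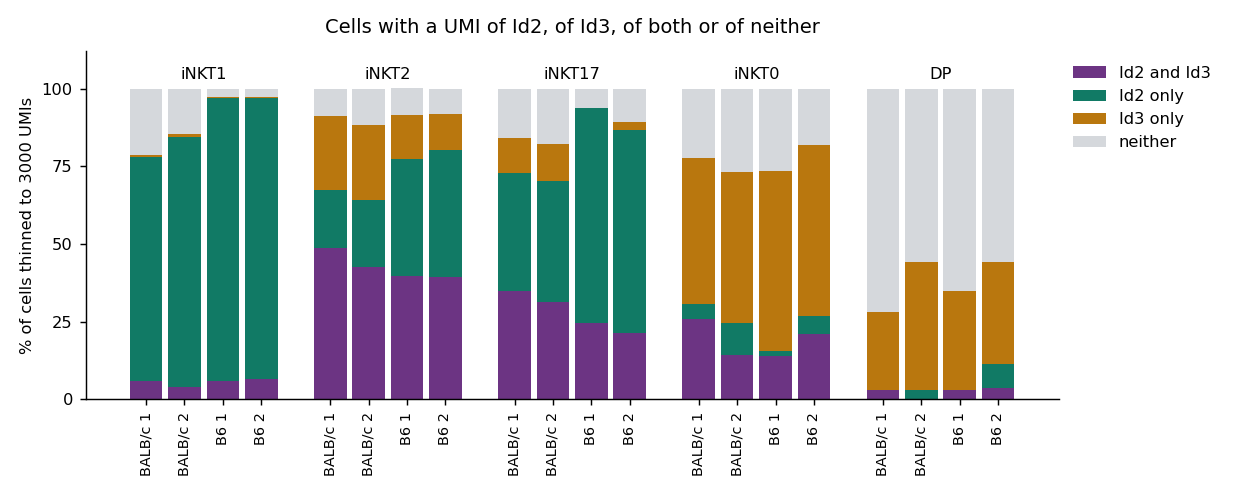
Share of cells with a UMI of both Id genes, of Id2 only, of Id3 only or of neither, in % of cells thinned to 3000 UMIs, for each class and library. Between 39.5 and 48.8% of iNKT2-like cells had both, whereas 71.9 to 90.9% of iNKT1-like cells had Id2 only.

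Cycling cells, defined by a UMI of at least 4 of 10 mitotic genes, had less Id2 and more Tcf3 than other cells of their library. They made up 6.28 and 7.0% of kept cells in BALB/c, against 5.93 and 4.42% in B6. In this contrast 4 of the 5 genes were called (55.3% of 11925 genes tested were): Id2 lower by a log2 fold of -0.87 ± 0.15 (edgeR adjusted p = 0.00121), and Id3 (0.90 ± 0.25, edgeR adjusted p = 0.0143), Tcf3 (0.43 ± 0.06, edgeR adjusted p = 0.000573) and Tcf4 (0.54 ± 0.18, edgeR adjusted p = 0.0308) higher. Cycling cells were mostly iNKT2-like, so the contrast was repeated inside that class. There the Id3 fold was 0.01 (edgeR adjusted p = 0.941) and the Tcf4 fold 0.01 (0.989), Id2 was still lower (-0.35, edgeR adjusted p = 0.000626) and Tcf3 still higher (0.39, edgeR adjusted p = 0.00022). Tcf3 in cycling iNKT2-like cells was 89.4 and 90.7 CPM in BALB/c, against 87.7 and 82.3 in B6. In the other iNKT2-like cells it was 64.2 and 68.5 CPM in BALB/c, against 64.5 and 61.4 in B6, so that cycling cells had 1.32 to 1.39 times as much in every library. The Id3 call over all cells was also lost without B6 1 (0.64, edgeR adjusted p = 0.0545) and without B6 2 (0.65, 0.0676), and the Tcf4 call was lost in 7 of 10 alternatives, among them without BALB/c 1 (0.55, 0.0522), without BALB/c 2 (0.56, 0.0734) and without B6 1 (0.36, 0.167).

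Other genes of the pathway were followed between strains from a list of 66: partners of helix-loop-helix proteins, cofactors, genes that act on Id levels, and genes known to be controlled by E or Id proteins in T cells. Of these, 11 are also markers that named the classes. Over all kept cells 5 of the 61 tested rose in BALB/c, 2 fell and 54 did not pass (median log2 fold 0.05, against -0.02 for all genes tested). Of all genes tested, 7.39% were called. Cbfa2t3, a corepressor that binds E proteins, had 22.0 and 19.5 CPM in BALB/c, against 8.70 and 6.72 in B6 (1.47 ± 0.19, edgeR adjusted p = 0.0305). Cd4 (0.82 ± 0.12, edgeR adjusted p = 0.0355) and the transcription factor gene Myb (0.78 ± 0.12, edgeR adjusted p = 0.0382) also rose, and Tbx21, the T-bet gene of iNKT1 cells (-2.07 ± 0.27, edgeR adjusted p = 0.0305), and the survival gene Bcl2 (-1.71 ± 0.31, edgeR adjusted p = 0.0497) fell. Without B6 2 more of the list was called, 15 higher and 11 lower of 63, as were more of all genes, 1830 of 13261 tested.

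Inside iNKT2-like cells 5 of 57 listed genes rose in BALB/c and 6 fell (median -0.02, as for all genes). Of all genes tested there, 6.49% were called. Sox4 rose (0.96 ± 0.10, edgeR adjusted p = 0.0135), as did Cbfa2t3, with 18.9 and 16.9 CPM in BALB/c, against 4.88 and 7.66 in B6 (1.57 ± 0.21, edgeR adjusted p = 0.0263), and Ldb1, an adaptor of LIM-domain complexes (0.59 ± 0.08, edgeR adjusted p = 0.0277). Tbx21 (-2.35 ± 0.14, edgeR adjusted p = 0.00482), the chemokine receptor gene Ccr9 (-1.83 ± 0.14, edgeR adjusted p = 0.00778) and Klf2, which promotes thymic exit (-0.99 ± 0.11, edgeR adjusted p = 0.0177), fell. In iNKT1-like cells 2 of 52 rose, Klf2 (1.46 ± 0.15, edgeR adjusted p = 0.00511) and Tcf7 (0.85 ± 0.11, edgeR adjusted p = 0.00944), and none fell (4.41% of all genes tested were called). In iNKT17-like cells 2 of 49 rose and 1 fell (4.59% of all genes tested were called): Cbfa2t3, with 43.7 and 43.0 in BALB/c, against 8.06 and 2.73 CPM in B6 (3.27 ± 0.37, edgeR adjusted p = 0.00166), Lef1 (1.41 ± 0.25, edgeR adjusted p = 0.0144) and S1pr1 (-2.95 ± 0.33, edgeR adjusted p = 0.00168). No listed gene was called in iNKT0-like (48 tested) or double-positive-like cells (47 tested); without B6 2, 7 and 3 were, beside 368 of 8645 and 255 of 8053 genes tested. Without B6 2 the listed genes called were also 15 higher and 6 lower in iNKT1-like cells, where 1578 of 10239 genes tested were called. They were 19 and 15 in iNKT2-like cells (3366 of 11986) and 7 and 3 in iNKT17-like cells (826 of 9848).

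Across the 20 sums of 5 classes and 4 libraries, the genes most like each of the 5 were found by Spearman's rho among 5914 genes with at least 20 CPM on average. These sums share libraries and classes, so the values are descriptions. Shisa5 (0.98), Ppp1r18 (0.97) and Lpxn (0.96) were most like Id2, and Mif (0.95), Adk (0.93), Rap1a (0.93) and Egr1 (0.93) most like Id3. Snrnp70 (0.93) followed Tcf3, Arid2 (0.96) followed Tcf12 and Celf2 (0.95) followed Tcf4. Among the 5 genes, Id2 ran against Tcf3 (-0.82) and Tcf4 (-0.77), Tcf4 ran with Tcf12 (0.84) and Tcf3 (0.79), and Id2 and Id3 had a rho of -0.54.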

How the data were processed

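The authors deposited UMI counts, whole and unnormalized, for each gene and barcode of the 4 libraries. Cell Ranger 7.1.0 and mm10 appear in the submitters' processing notes; 3 file headers (BALB/c 1 and 2, B6 1) give version 6.0.0 instead. Barcodes needed 500 genes, 1000 UMIs and at most 10% mitochondrial UMIs, and those of highest Scrublet score were dropped as doublets (0.8% per 1000 barcodes; 33, 34, 50 and 758). Kept cells were clustered with scanpy 1.11.5 (2000 variable genes, 30 components, 15 neighbours, Leiden resolution 1.0), leaving out the 5 genes. A cluster took a name where a marker list averaged a log2 fold of at least 0.3 with 40% of its genes, and at least 3, above 0.5; clusters of low UMI count or with no such list stayed unnamed. Lists under 5 genes could not name a cluster, a rule set after seeing the data. These rebuilt names may differ from the study's.

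UMIs were summed per library and class (at least 20 cells) and tested with edgeR 4.0.16 in R 4.3.3 (TMM, filterByExpr, quasi-likelihood test, p adjusted by Benjamini-Hochberg across the genes of each fit, called under 0.05). Class and cycling contrasts had library as a block. DESeq2 1.42.0 was an alternative. A strain fit without 1 library leaves a single library in that strain. Its p-values and counts of called genes then rest on the spread within the other strain. The fits were tested on simulated data. Of 32285 genes, 32235 matched GENCODE vM21. The text names the 5 genes and, per strain comparison, up to 3 called genes of the 66 listed in each direction, by lowest p. The members and lists were chosen with earlier results of these data known.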

Additional observations from a re-analysis of the deposited data

Results flagged for a closer look

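The difference between strains was not the same in iNKT1-like and iNKT2-like cells for Id3 and for Id2, by the interaction term of the edgeR fit over 8 sums. The cluster makeup of both classes also differed between strains, and its part in these terms was not tested. For Id3 the term was -0.90 on the log2 scale (edgeR adjusted p = 8.55e-05): the strain fold, BALB/c over B6, was -0.04 in iNKT1-like and 0.85 in iNKT2-like cells. For Id2 the term was -0.40 (edgeR adjusted p = 0.0076), with strain folds of -0.70 in iNKT1-like and -0.32 in iNKT2-like cells. The share of cycling cells in the iNKT2-like class moved with strain (8.37 and 11.8% in BALB/c, 34.3 and 19.3% in B6); without cycling cells the terms were -0.97 for Id3 and -0.23 for Id2, both past the threshold.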

How the results depend on the processing

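Of 64 member results tried under 731 alternatives, 659 kept their side of the threshold, 31 lost the call, 41 gained one and 0 reversed as called values; in 48 of the 659 the sign changed where neither fit called the gene. The cause of these changes was not tested. Counts of called genes moved most. Over all kept cells (952 called) DESeq2 gave 1756, the replicate block 38, and leaving out a library 0 to 5166; the 0 came without either BALB/c library, where edgeR had 1386 and 1641 genes at an unadjusted p under 0.05. In iNKT1-like cells (470) no filter gave 1364, the replicate block 776, crossed pairs 963 and leaving out a library 0 to 3549, the 0 with 1085 genes at an unadjusted p under 0.05. In iNKT2-like cells (774) no filter gave 2339, dropping cycling cells 1243 and leaving out a library 53 to 5639. In iNKT17-like cells (428) no filter gave 1080, DESeq2 254, the replicate block 644, crossed pairs 673 and leaving out a library 206 to 1986. In iNKT0-like cells (87) no filter gave 538, resolution 1.5 gave 18, doublets kept 152, crossed pairs 181 and leaving out a library 45 to 992. In double-positive-like cells (120) no filter gave 499, DESeq2 74, dropping cycling cells 186, the replicate block 66, crossed pairs 78 and leaving out a library 54 to 1032. Resolution 1.5 gave 5329 for iNKT0 over iNKT2 (3362), and for strain by class (1139) DESeq2 gave 528 and leaving out a library 729 to 1369.

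With the replicate block, Id3 and Id2 over all kept cells were 1.61 and -0.94 and lost their calls (edgeR adjusted p = 0.0536 and 0.0668); the block ended no other member call between strains and gained Tcf12 in iNKT1-like and iNKT17-like cells. Same-numbered libraries deviated in opposite ways (r = -0.27 over 12882 genes), so the numbers do not pair the samples; crossed pairs gave 777 called genes over all kept cells. Leaving out a library, Id3 ranged from 1.51 to 1.71 and Id2 from -0.97 to -0.90 over all kept cells, Id2 from -0.73 to -0.67 in iNKT1-like cells, Id3 from 0.72 to 1.00 in iNKT2-like cells (0.73 at resolution 1.5), Id2 from -0.75 to -0.65 for iNKT17 over iNKT1 (DESeq2 -0.67, marker score -0.59), and the Id2 interaction from -0.48 to -0.29. Of 22 shares under 202 alternatives, 9 values reversed. The Id2 share of iNKT0-like cells, BALB/c minus B6, was -5.34 percentage points at resolution 1.5, -10.6 by marker score and -5.03 with doublets kept. The Id share difference was -1.02 over all kept cells and -0.64 in iNKT17-like cells without Tcf12, -2.33 by marker score in double-positive-like cells, and, leaving out a library, -1.88 to 4.30 in iNKT17-like cells, -3.37 to 15.7 in double-positive-like cells and -0.94 to 0.72 for iNKT17 minus iNKT1. Dropping cycling cells, crossed pairs, cycling within iNKT2-like cells, shares without Tcf12 and shares with doublets kept were chosen after seeing the data. Doublets kept was not run for double-positive-like cells. Tcf4 is limited by depth, at 1 to 128 UMIs in the iNKT1, iNKT2, iNKT17 and iNKT0-like sums.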

Other observations

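A B6 cluster led by interferon-response genes (Ifit3, Cxcl10, Rsad2) had 1281 and 1294 CPM of Id2 and 22.3 and 33.4 CPM of Id3, near the B6 iNKT1-like values, in 118 and 455 cells of B6 1 and B6 2; BALB/c had 3 and 7 such cells. The small B-cell-like cluster, which may be mixed, had Id2 at 102 and 218 CPM in BALB/c, against 399.5 in B6 1, from 8, 62 and 90 UMIs.

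The unnamed clusters together had 766 and 1158 CPM of Tcf12 in BALB/c, against 472 and 676 in B6, but differed among themselves; the 1158 of BALB/c 2 rests on 29 UMIs in 14 cells. One cluster, in which 9 of the 10 double-positive markers were raised (mean log2 fold 2.04) and which gave 187 of the 210 UMIs of BALB/c 1, with median depths of 1382.5 to 2308.5 UMIs per cell, reached 1151 in BALB/c 1, 1106 in B6 1 and 2329 in B6 2, with little Id2 (18.5, 27.2 and 104, from 3, 3 and 24 UMIs). A cluster of 782 B6 2 cells at a median of 2466.5 UMIs had 732, a cluster of 44 BALB/c 1 and 178 B6 1 cells had 236.5 and 292.9, and a cluster of 188 B6 2 cells had 97.4, inside the 24.1 to 151 of the iNKT classes.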
